A study of Mus musculus with 24 samples.

Results

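Chemokines and their receptors were followed across the series as 10 genes, 7 of them soluble ligands of the CXC and CC families (Cxcl12, Cxcl1, Cxcl5, Cxcl10, Ccl2, Ccl5 and Ccl7), 1 the membrane-tethered ligand Cx3cl1, 1 the signalling receptor Cxcr4 and 1 the atypical receptor Ackr3. The members were taken by name, and all 10 of 10 were found among the 22282 genes of the 24 libraries and passed a filter that asked for a mean of 1 FPKM or more. FPKM are fragments per kilobase of transcript, scaled here between libraries by upper-quartile normalization, so levels can be set side by side between genes. The RNA came from mouse amniotic cells, from endothelial cell (EC)-like cells made from them, and from lung and liver ECs, all of C57BL/6J background, with 3 libraries in each of 8 groups.

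MACs were mid-gestation amniotic cells of mixed embryos aged E11.5 to E13.5, and Akt-MACs were such cells given a lentivirus for Akt. RACVECs were MACs transduced with Etv2, Erg and Fli1, the Ets factors, and kept in EC medium with SB431542, an inhibitor of TGF-β receptor signalling. VEGF-A was added to this medium during conversion. Amniotic cells were grown in AmnioMAX medium before conversion, and the medium of the sequenced MACs is not stated. Medium, VEGF-A, SB431542 and time in culture may thus differ between RACVECs and MACs, and cannot be told apart there from the Ets factors. Akt-RACVECs carried constitutively active Akt in addition. Sox17-RACVECs carried Sox17 from a second lentiviral vector and were selected with puromycin. The Ets factors and Akt were driven by the ubiquitous PGK promoter, so that their expression was not limited to ECs. Akt-LECs and Akt-liver ECs were lung and liver ECs captured with beads against CD31, transduced with myristoylated Akt, grown in the same EC medium and sorted again for VEcad and CD31. LSECs were non-lymphatic ECs sorted from the liver without culture, so that culture and Akt are both absent from this group and cannot be told apart in its comparison with Akt-liver ECs. The lung and liver ECs came from adult mice, whose age was not given further in the sources used here. The methods count separately isolated cultures of amniotic cells as biological replicates, but the labels do not say which library is which isolate. For the lung and liver ECs separate animals are not stated. Headers of the deposited values hint at pairs, MAC 2 with RACVEC 1 and MAC 3 with RACVEC 2. The main test took all libraries as unpaired. The p-values therefore measure the spread between these libraries, which may be technical in part.

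Chemokines are small secreted proteins that bind to seven-transmembrane receptors on leukocytes and other cells and direct their migration, and endothelium both makes them and displays them on its surface. Cxcl12 signals through Cxcr4 and is also bound and removed by Ackr3, and this axis is known for its part in vascular development and in the retention of haematopoietic cells. Many inflammatory chemokines are induced by NF-κB, and Cxcl10 is in addition a classical target of interferon signalling.

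The promoter sequences of RefSeq (build GRCm38.p6) held 6 of the 10 members, namely Cxcl12, Cxcr4, Ackr3, Cxcl1, Cxcl10 and Cx3cl1. The 250 bases before the annotated start are printed for 3 of them, because Cxcl10 and Cx3cl1 were called between liver groups in opposite directions and Cxcl1 holds another kappaB match. Capitals mark matches to the kappaB and ISRE (interferon-stimulated response element) consensus on either strand. The Cxcl10 promoter lies at chr5:92348890-92349139 on the minus strand, that of Cxcl1 at chr5:90890995-90891244 on the plus strand and that of Cx3cl1 at chr8:94771930-94772179 on the plus strand.
Cxcl10: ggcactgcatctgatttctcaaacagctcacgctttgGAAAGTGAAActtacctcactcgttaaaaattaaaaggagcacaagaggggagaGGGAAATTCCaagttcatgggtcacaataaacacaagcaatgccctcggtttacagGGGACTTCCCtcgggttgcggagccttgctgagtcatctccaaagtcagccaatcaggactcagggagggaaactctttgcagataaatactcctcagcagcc
Cxcl1: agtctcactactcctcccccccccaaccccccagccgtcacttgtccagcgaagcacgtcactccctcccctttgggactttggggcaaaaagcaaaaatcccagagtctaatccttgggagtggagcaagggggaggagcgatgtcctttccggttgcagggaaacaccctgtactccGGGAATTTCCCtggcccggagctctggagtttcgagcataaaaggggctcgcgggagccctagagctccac
Cx3cl1: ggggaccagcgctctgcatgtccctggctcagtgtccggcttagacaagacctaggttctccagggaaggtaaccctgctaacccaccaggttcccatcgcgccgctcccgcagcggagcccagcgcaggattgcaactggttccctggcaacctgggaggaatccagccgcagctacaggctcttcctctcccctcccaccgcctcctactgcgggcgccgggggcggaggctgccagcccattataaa
Cxcl10 held 2 kappaB matches, with first bases at -159 and -103 from the start, and 1 ISRE match with its first base at -213. Cxcl1 held 2 overlapping kappaB matches on the same stretch, with first bases at -71 and -70. Neither word was found in the same window of Cx3cl1, Cxcl12, Cxcr4 or Ackr3. Of 32851 promoter windows of this length, 3.90% held a kappaB match and 5.09% an ISRE match. An Ets word (AGGAAG or the forms ending in A or beginning with C) occurred once each in Ackr3, Cxcl1 and Cx3cl1 and in 57.2% of all windows, and the Sox word AACAAT occurred in none of the 6 and in 9.42% of all windows, on either strand. A match is a description of letters and was not tested for binding.

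In mm9, the build of the files, Ccl2 (chromosome 11, 81849073 to 81850955) and Ccl7 (chromosome 11, 81859214 to 81861027) are neighbours on the plus strand with 8258 bases between them. Cxcl5 (chromosome 5, 91188325 to 91190651) and Cxcl1 (chromosome 5, 91320267 to 91322141) lie in another ligand cluster, and Cxcl10 (chromosome 5, 92775664 to 92777915) lies further along the same chromosome. Cx3cl1 is on chromosome 8 from 97295909 to 97306323, Cxcl12 on chromosome 6 from 117118553 to 117131385 and Ccl5 on chromosome 11 from 83339280 to 83344020. Both receptors are on chromosome 1, Cxcr4 from 130484776 to 130488870 and Ackr3, annotated there under its older name Cxcr7, from 92100555 to 92113326.

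The summed FPKM of a library ranged from 1689486 to 2317294, with 12356 to 14985 genes above 0. The depth behind a value is unknown. Several libraries stood apart from their groups. Of the transduced genes, Etv2 was 301 to 860 and Fli1 178 to 257 in RACVECs, but Erg only 3.91, 13.8 and 0.90, against 395 to 1002 in Akt-RACVECs. Erg was also 4.49 and 0 in Sox17-RACVECs 1 and 3. Akt1 was 884 to 1323 in Sox17-RACVECs, 872 to 1281 in Akt-RACVECs and 607 to 694 in RACVECs, and Sox17 was 5.09, 40.1 and 200 in Sox17-RACVECs and 0 in RACVECs. The library labelled Sox17-RACVEC 2 listed Etv2 at 0, against 458 and 378 in the other libraries of its group, and Erg at 387, and its 10 mesenchymal and smooth muscle markers summed to 11.9, against 1289 and 2383. The 13 measured macrophage markers summed to 7.62 to 23.9 in MACs but to 1183, 17105 and 51604 in Akt-MACs 1, 2 and 3. Akt-LEC 1 and Akt-liver EC 1 had mesenchymal sums of 4183 and 2651, against 38.7 to 439 in the other libraries of those groups. LSECs held the markers of their label, with sinusoidal EC sums of 52836 to 63754, and also those of macrophages (20054 to 32320), hepatocytes (3592 to 17389) and T, NK and B cells (164 to 192). MACs had EC marker sums of only 57.1 to 156, while Robo4 was listed at 0.

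Ccl2, the monocyte chemoattractant that acts through Ccr2, was the most abundant member in 19 of 24 libraries and took a median of 56.9% of the FPKM of the 10 genes. The exceptions were MAC 1, where Cxcl5 led, Akt-RACVEC 3, where Ackr3 led, and the 3 LSEC libraries, where Cxcl10 led. Ccl7, Cxcl1 and Cxcl5 reached maxima of 5244, 3741 and 3154, all in RACVECs. Cxcr4 and Ccl5 were the lowest members, with median FPKM of 7.46 and 19.9 over all libraries. The members differed in how well replicate libraries held together. The median within-group SD of log2(FPKM + 1) was 0.56 for Ccl2 and 0.98 for Ccl7, but 2.12 for Cxcl12 and 3.29 for Cxcl5.

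**Figure D1:**
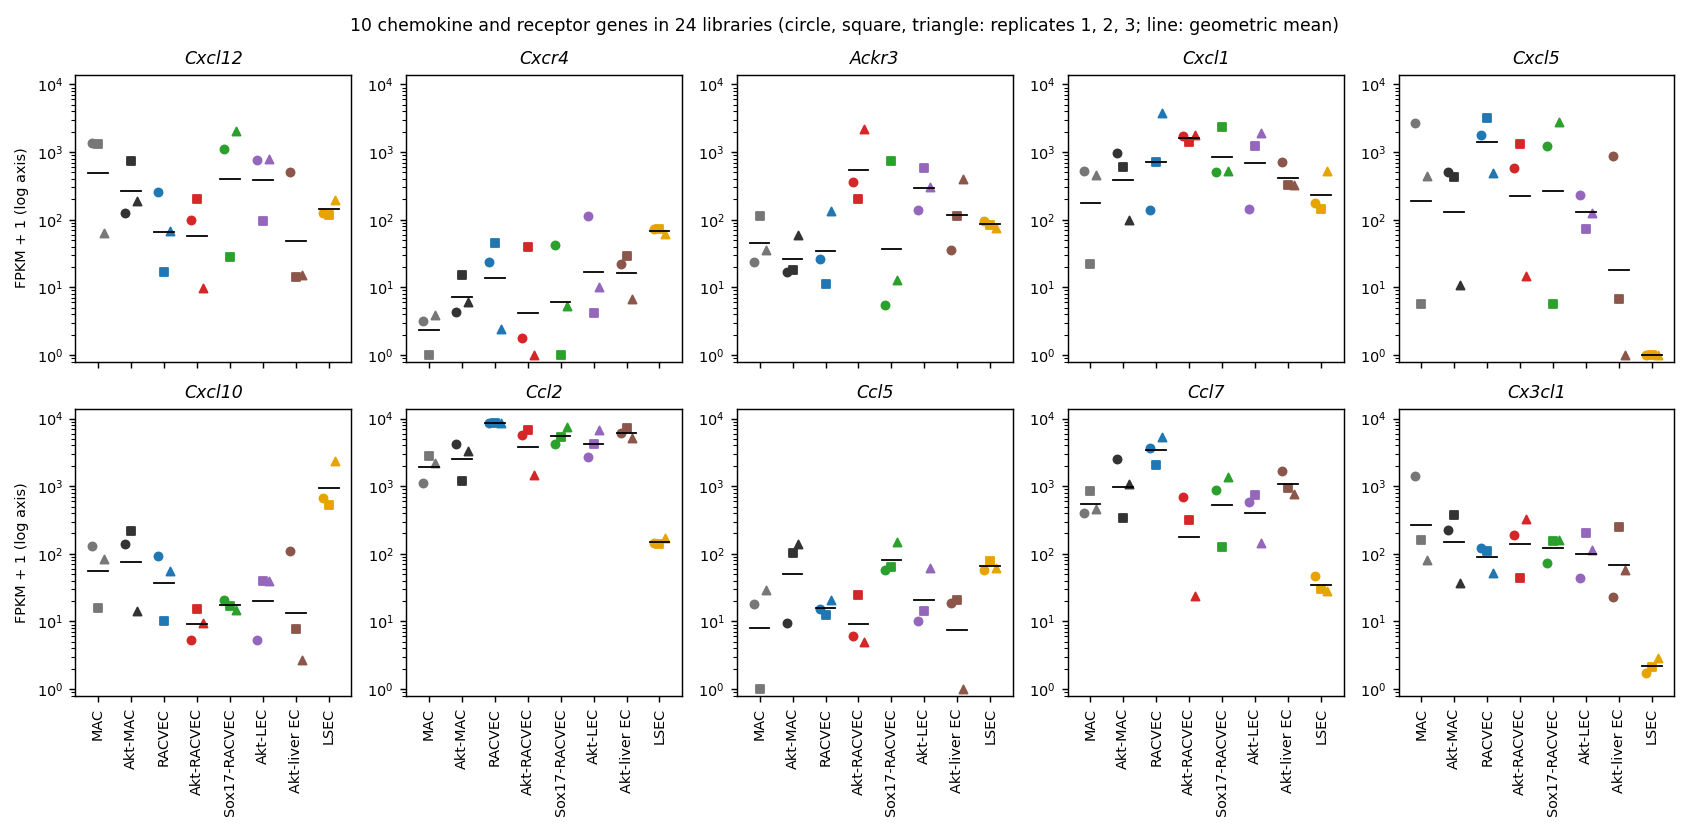
FPKM + 1 of each member (log axis) in the 24 libraries by group, with replicates 1, 2 and 3 as circles, squares and triangles and the geometric mean as a line. Ccl2 lies between 138 and 171 FPKM in LSECs and at 1110 or more in every other library, whereas Cxcl10 is at 523 or more in LSECs and at 218 or less elsewhere.

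Between the cultured liver ECs and freshly sorted LSECs, 4 of the 10 members were called, 3 higher and 1 lower in Akt-liver ECs. A call required a limma adjusted p under 0.05 together with a log2 fold change (of FPKM + 1) beyond 1 or -1, which held for 27.0% of all 14964 genes tested in this comparison, 14.1% higher and 12.9% lower. Of the members, 6 had libraries that did not overlap between these groups, as had 52.6% of all genes. Between RACVECs and MACs, 1 of 10 members was called, Ccl2, which was higher in RACVECs, against 2.71% of all genes in either direction and 1.36% higher. Here 2 members, Ccl2 and Ccl7, had libraries that did not overlap, against 22.0% of all genes.

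No member was called in the other comparisons. The share of all genes called was 0.261% for Akt-RACVECs against RACVECs, 2.81% for Akt-MACs against MACs and 0.00668% for Sox17-RACVECs against RACVECs. It was 0.00% for Sox17-RACVECs against Akt-RACVECs, 0.0134% for Akt-LECs against Akt-liver ECs and 0.261% for RACVECs against Akt-LECs. For the difference between the Akt effect in RACVECs and that in MACs it was 0.10%. In Akt-RACVECs against RACVECs, 3 members (Ackr3, Ccl2 and Ccl7) had libraries that did not overlap, against 19.8% of all genes. At an unadjusted p below 0.05 and the same fold, 3 members passed there, 1 higher and 2 lower. The count was 1 for Akt-MACs against MACs and for Sox17-RACVECs against RACVECs, 2 for Sox17-RACVECs against Akt-RACVECs, for RACVECs against Akt-LECs and for the difference between the Akt effects, and 0 for Akt-LECs against Akt-liver ECs. An unadjusted unequal-variance test on FPKM with the same fold called Ccl2 in RACVECs against MACs, Ccl2, Ccl5 and Cxcr4 (3 members, without Cxcl10, Ccl7 and Cx3cl1) in the liver comparison, and 0 members in the other 6 comparisons of groups. Shares of all genes at these unadjusted limits are not given here. The unadjusted counts therefore have no background, and the shares above, which are of adjusted calls, cannot serve as one. The comparisons of Akt-RACVECs and Sox17-RACVECs share the RACVEC libraries.

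**Figure D2:**
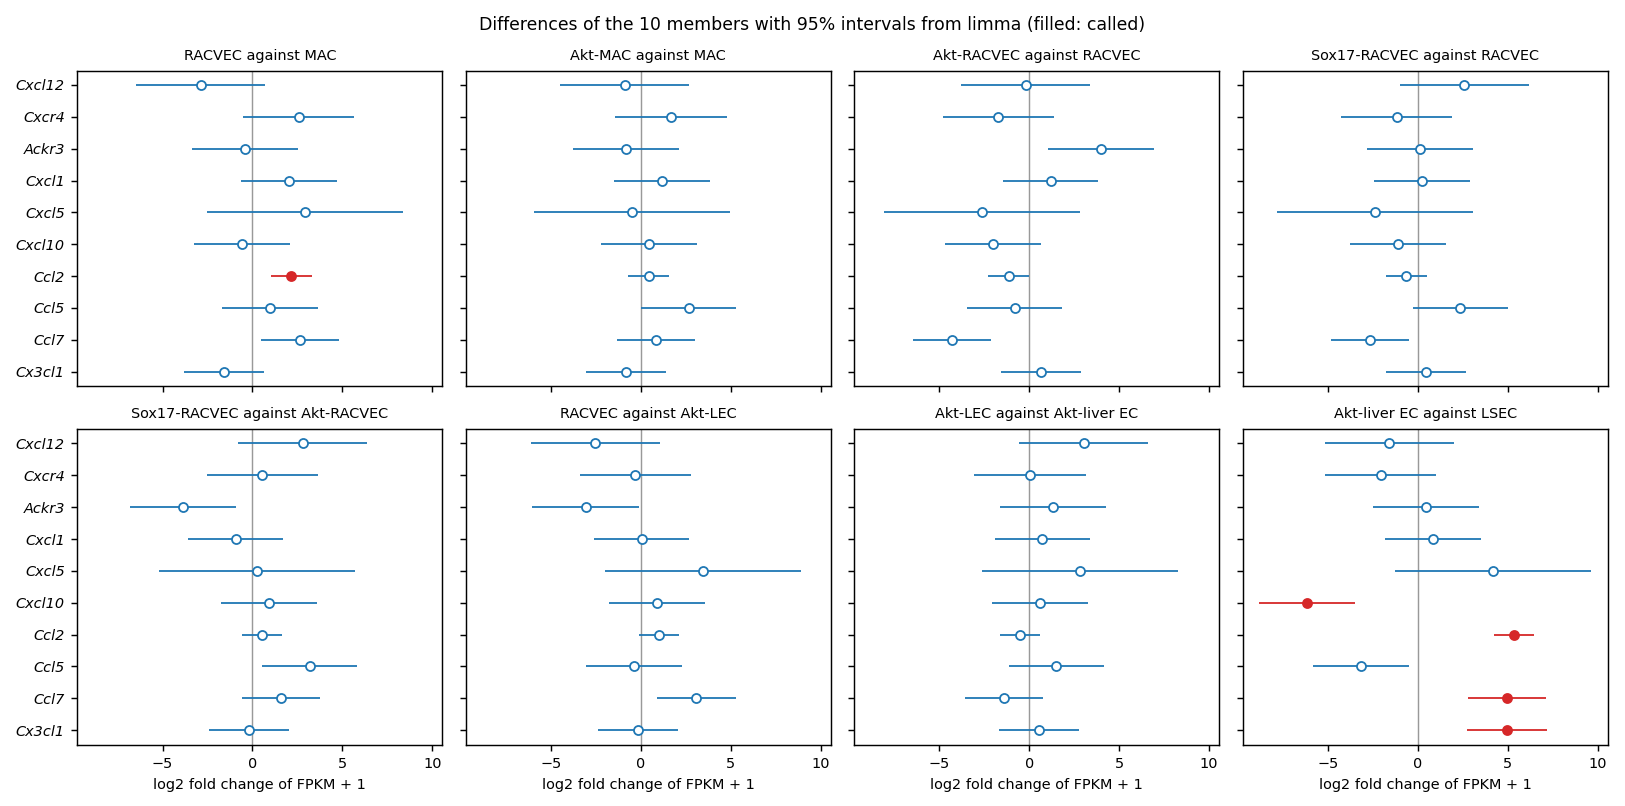
Log2 fold change of FPKM + 1 of each member (horizontal axis) with its 95% interval from limma, in 8 comparisons, 3 against 3 libraries each. Filled points are called, which are Ccl2 in RACVECs against MACs (2.17) and Ccl2 (5.33), Ccl7 (4.94), Cx3cl1 (4.97) and Cxcl10 (-6.14) in Akt-liver ECs against LSECs.

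Cxcl12, the ligand of Cxcr4 that retains haematopoietic stem cells, varied widely within groups. Its FPKM was 1363, 1330 and 63.6 in MACs and 254, 16.1 and 66.3 in RACVECs. It was 1128, 26.7 and 2039 in Sox17-RACVECs and 97.1, 203 and 8.68 in Akt-RACVECs. In each of these groups at least 1 library lay apart from the rest by several fold, and the ranges overlapped. It was 126, 744 and 189 in Akt-MACs and 762, 94.0 and 792 in Akt-LECs. In Akt-liver ECs it was 503, 13.1 and 14.3, and in LSECs, the most uniform group, 127, 117 and 195. All 7 neighbours in the order of the group means overlapped, from MACs at the top to Akt-liver ECs at the bottom. Sox17-RACVECs differed from RACVECs by 2.59 on the log2 scale, with a 95% interval from -0.99 to 6.17 (adjusted p = 0.856). Without the library labelled Sox17-RACVEC 2 it was 4.51 (adjusted p = 0.725).

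The receptor Cxcr4 was high and even in LSECs, at an FPKM of 72.7, 70.8 and 59.8. It was 21.4, 28.5 and 5.72 in Akt-liver ECs, below every LSEC library, a difference of -2.06 on the log2 scale (standard error 1.48, adjusted p = 0.303). When only these groups were fitted the adjusted p was 0.0474. Elsewhere it ranged from 0 to 111. It was 2.15, 0 and 2.90 in MACs, where it was lowest, and 3.26, 14.3 and 5.02 in Akt-MACs. In RACVECs it was 22.5, 44.5 and 1.39, which overlapped with Akt-RACVECs at 0.80, 38.3 and 0. In Sox17-RACVECs it was 41.4, 0 and 4.28 and in Akt-LECs 111, 3.19 and 9.21. All 7 neighbours in the order of the group means overlapped.

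Ackr3, which binds Cxcl12 without classical G protein signalling, was highest in Akt-RACVECs. Its FPKM there was 354, 201 and 2223, above all 3 RACVEC libraries at 25.6, 10.4 and 134. On the log2 scale the difference was 3.98 (standard error 1.41, 95% interval 1.03 to 6.93, adjusted p = 0.176), which was not called. In MACs it was 22.8, 114 and 34.7 and in Akt-MACs 15.96, 16.96 and 58.5, which overlapped. The Akt effect in RACVECs minus that in MACs was 4.79 (standard error 1.99, adjusted p = 0.329). In Sox17-RACVECs it was 4.55, 739 and 11.9, so that the library labelled Sox17-RACVEC 2 was apart from the other 2. With that library, the log2 fold change of Sox17-RACVECs against Akt-RACVECs was -3.85 (adjusted p = 0.542), and without it -6.01 (adjusted p = 0.0115), which was called. Akt-LECs held 138, 590 and 299, all above RACVECs (log2 fold change of RACVECs against Akt-LECs -3.08, adjusted p = 0.417), Akt-liver ECs 34.4, 113 and 397, and LSECs 94.4, 83.9 and 75.5.

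Cxcl12 lay above Ackr3 in 17 of 24 libraries and below it in 7, which were RACVEC 3, Akt-RACVECs 1 and 3, the library labelled Sox17-RACVEC 2, Akt-LEC 2 and Akt-liver ECs 2 and 3. In Sox17-RACVECs 1 and 3 the log2 ratio of Cxcl12 to Ackr3, each plus 1, was 7.67 and 7.31, against -4.74 in the library labelled Sox17-RACVEC 2. In Akt-RACVECs it was -1.86, 0.02 and -7.84, and in LSECs 0.42, 0.47 and 1.36. The Pearson correlation of both genes on the log2 scale was -0.50 over the 24 libraries, which share groups and are no independent points. The summed mesenchymal and smooth muscle markers were correlated with both genes, positively with Cxcl12 and negatively with Ackr3. The correlation over 24 libraries was 0.49 with Cxcl12 and -0.75 with Ackr3. The sums were 6.04 to 408 in Akt-RACVECs and 3036 to 6732 in RACVECs. Of the 10 markers, 1 was called lower in Akt-RACVECs, against 0.261% of all genes called in either direction. Every marker was above 0 in some library of each of these groups. EC marker sums were 14208 to 19377 in Akt-RACVECs and 2235 to 4638 in RACVECs. The part of these cell type markers in the Ackr3 and Cxcl12 values was not tested, and fewer cells of a type and less RNA per cell cannot be told apart in bulk samples.

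**Figure D3:**
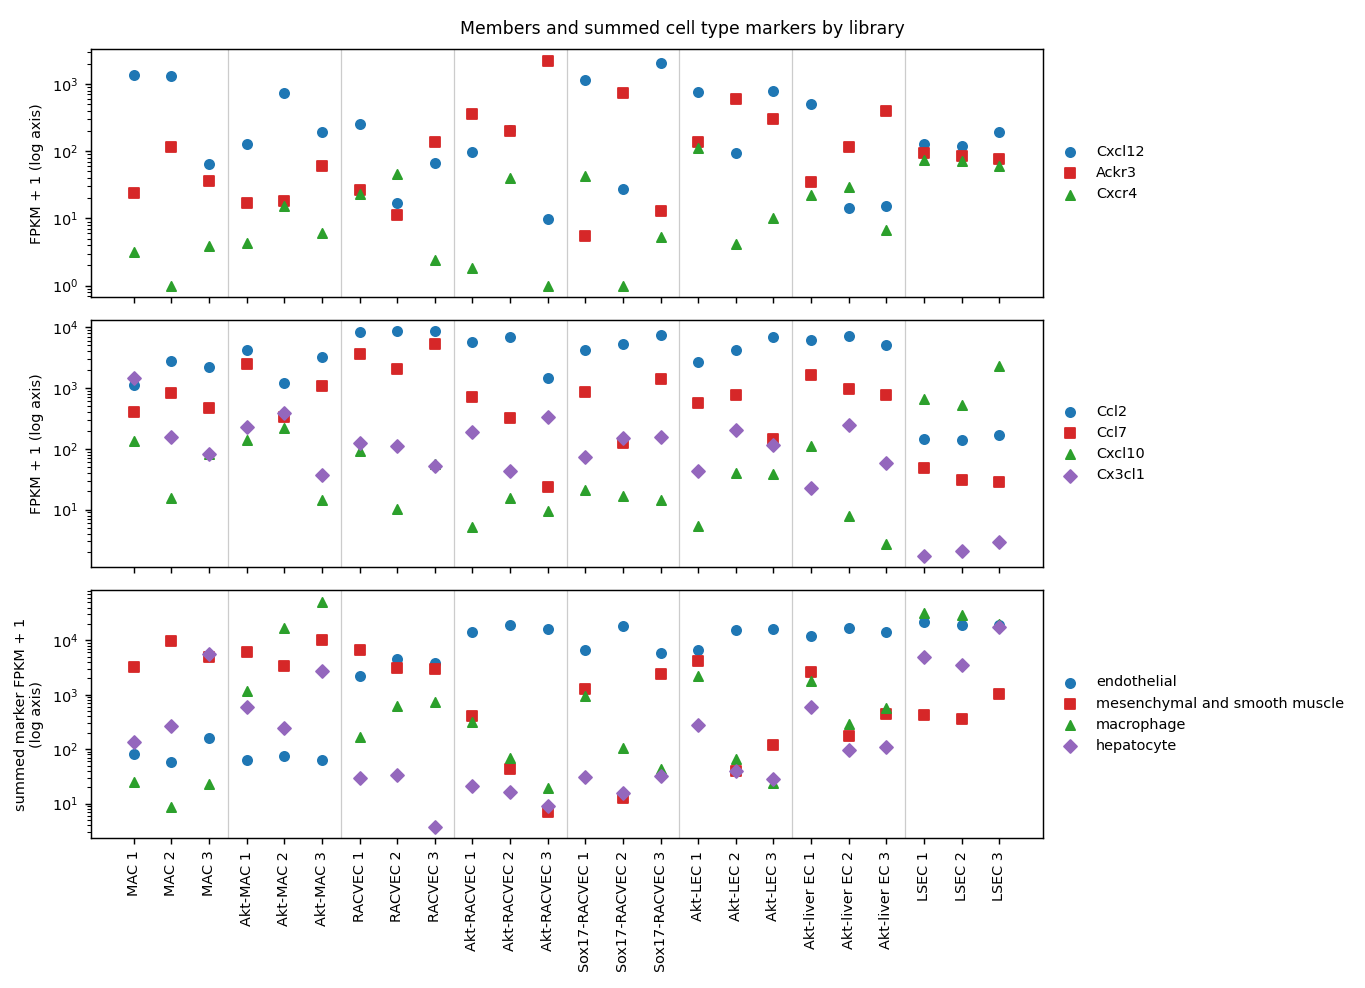
FPKM + 1 of 7 members (upper panels) and summed FPKM + 1 of cell type markers (lower panel), all on log axes, in each library, with lines between groups. Ackr3 lies above Cxcl12 in 7 of 24 libraries, among them Akt-RACVEC 3 and the library labelled Sox17-RACVEC 2, with mesenchymal and smooth muscle sums of 6.04 and 11.9, and RACVEC 3, with a sum of 3036.

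Cxcl12 was the only member listed with several transcripts, and their shares differed between groups. NM_021704, which encodes the short α form, held 70.2% of the Cxcl12 FPKM over all libraries, NM_013655 (β) 11.6% and NM_001012477 (γ, with the longest and most basic tail) 18.2%. The γ share was 1.89 to 3.33% in MACs, 2.02 to 4.90% in Akt-MACs and 1.83 to 2.28% in LSECs. It was 32.3, 70.4 and 49.4% in Akt-RACVECs, 44.7, 63.2 and 42.1% in Akt-LECs and 31.6, 42.3 and 34.5% in Akt-liver ECs. Every library of these 3 groups thus lay above every MAC, Akt-MAC and LSEC library. Akt-MACs carried Akt as well. RACVECs held 3.69, 21.5 and 2.46%, and Sox17-RACVECs 12.0, 52.9 and 25.2%, with the highest value again in the library labelled Sox17-RACVEC 2. RACVEC 2 and all Sox17-RACVEC libraries thus also lay above every MAC, Akt-MAC and LSEC library. LSECs held the largest β share, 43.1, 42.3 and 28.4%. The shares are a description with no test. Most of the coding sequence is common to the transcripts, and the split of fragments between them was estimated by Cufflinks.

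**Figure D4:**
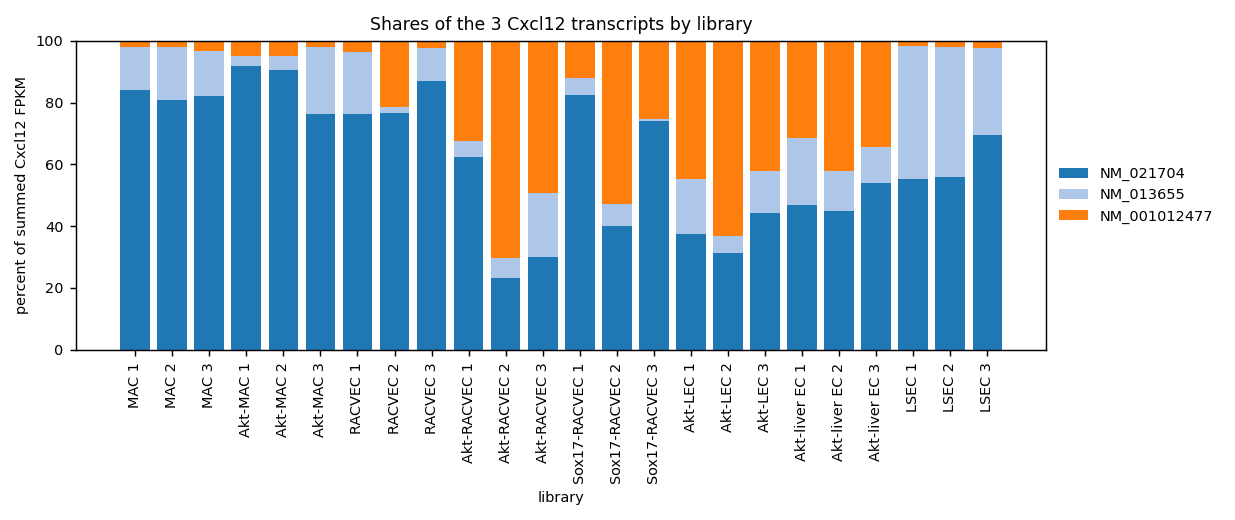
Percent of the summed Cxcl12 FPKM held by each of its 3 RefSeq transcripts (stacked bars, from 0 to 100) in each library. NM_001012477 takes 31.6 to 70.4% in Akt-RACVECs, Akt-LECs and Akt-liver ECs and at most 4.90% in MACs, Akt-MACs and LSECs. It takes 2.46 to 21.5% in RACVECs and 12.0 to 52.9% in Sox17-RACVECs.

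Cxcl1, a neutrophil attractant that acts through Cxcr2, was present in every library, and no comparison called it. Its FPKM was 1735, 1386 and 1774 in Akt-RACVECs, the highest and most even group, and 140, 701 and 3741 in RACVECs. The log2 fold change of Akt-RACVECs against RACVECs was 1.18, with a 95% interval from -1.48 to 3.83. MACs held 517, 21.4 and 451, and Akt-MACs 978, 596 and 99.5. Each group overlapped with its neighbours. Sox17-RACVECs held 501, 2317 and 529, Akt-LECs 142, 1223 and 1928, Akt-liver ECs 701, 327 and 320, and LSECs 174, 141 and 519. The log2 fold change of RACVECs against MACs was 2.05 (95% interval -0.61 to 4.70, adjusted p = 0.390).

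Cxcl5, another Cxcr2 ligand, was listed at 0 in all 3 LSEC libraries and was the most variable member in culture. RACVECs had the highest geometric mean, with an FPKM of 1776, 3154 and 493, and lay above all Akt-LEC libraries at 235, 71.8 and 124. The log2 fold change between these groups was 3.44 (95% interval -2.01 to 8.90, adjusted p = 0.665). MACs held 2649, 4.65 and 438, and Akt-MACs 504, 424 and 9.76. Replicates of a group thus lay far apart. Akt-RACVECs held 589, 1315 and 13.9, Sox17-RACVECs 1224, 4.65 and 2745, and Akt-liver ECs 877, 5.79 and 0. No fold is given against LSECs. A value of 0 can also be a failed estimate.

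Ccl2 separated the RACVECs from the MACs and the cultured ECs from LSECs. Its FPKM was 8445, 8585 and 8606 in RACVECs, the highest in the series, and 1110, 2819 and 2176 in MACs. The RACVEC libraries were nearly equal and all lay above the MACs, and limma gave 2.17 on the log2 scale (standard error 0.54, adjusted p = 0.0318). This call was lost with only these groups fitted (adjusted p = 0.204) and with any of 5 of the 6 libraries left out. Those were MACs 1 and 3 and RACVECs 1, 2 and 3, and the fold then lay between 1.79 and 2.27 with adjusted p from 0.0630 to 0.145. Macrophage marker sums were 7.62 to 23.9 in MACs and 169 to 733 in RACVECs, where 3 of 13 markers were above 0 in both groups Cd14 was called higher, and Ptprc, Adgre1 and C1qa were listed at 0 throughout. EC marker sums were 57.1 to 156 in MACs and 2235 to 4638 in RACVECs. The call as higher held for 7 of 10 EC markers, against 1.36% of all genes. The Pearson correlation of Ccl2 with the EC marker sum was -0.02 over the 24 libraries of all groups, a value that does not address RACVECs and MACs alone. EC sums were 14208 to 19377 in Akt-RACVECs and 18939 to 21766 in LSECs, and Ccl2 was below RACVECs in both groups. These groups also differ from RACVECs in Akt or in culture. The part of the macrophage and EC markers in the Ccl2 result was not tested.

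The Ccl2 FPKM was 4243, 1186 and 3287 in Akt-MACs, 5639, 6878 and 1457 in Akt-RACVECs and 4159, 5341 and 7561 in Sox17-RACVECs. All Akt-RACVEC and all Sox17-RACVEC libraries lay below all RACVEC libraries. The log2 fold changes were -1.15 (95% interval -2.28 to -0.03, adjusted p = 0.298) and -0.63 (95% interval -1.75 to 0.49, adjusted p = 0.937). Akt-LECs held 2655, 4145 and 6833, below RACVECs with a log2 fold change of 1.02 for RACVECs against Akt-LECs (adjusted p = 0.491).

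LSECs had the lowest Ccl2 of the series, with an FPKM of 145, 138 and 171, and Akt-liver ECs held 6168, 7289 and 5088. The groups lay far apart, by 5.33 on the log2 scale (standard error 0.54, 95% interval 4.21 to 6.46, adjusted p = 3.81e-07). The call held with each of the 6 libraries left out in turn, at log2 fold changes from 5.21 to 5.47.

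Ccl7, a CC ligand for Ccr2 and other receptors, followed Ccl2 in this comparison and was highest in RACVECs as well. Its FPKM was 1650, 954 and 768 in Akt-liver ECs and 46.5, 29.5 and 27.6 in LSECs. The groups did not overlap and differed by 4.94 on the log2 scale (standard error 1.04, adjusted p = 0.00128). RACVECs held 3680, 2040 and 5244, above every library of each other group except Akt-MAC 1, which held 2516. The other Akt-MACs held 335 and 1073, and MACs 406, 842 and 465. RACVECs differed from MACs by 2.65 on the log2 scale (95% interval 0.47 to 4.82, adjusted p = 0.168), which was not called although the groups did not overlap. Akt-LECs held 575, 752 and 145, all below Akt-liver ECs (log2 fold change -1.42, adjusted p = 1) and all below RACVECs (log2 fold change of RACVECs against Akt-LECs 3.09, adjusted p = 0.231).

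Ccl7 had the lowest adjusted p of the members in the comparison of Akt-RACVECs with RACVECs. Akt-RACVECs held an FPKM of 700, 316 and 23.0, all below RACVECs, a log2 difference of -4.28 (standard error 1.04, 95% interval -6.46 to -2.11, adjusted p = 0.0623). Without Akt-RACVEC 1 it was -5.29 and called (adjusted p = 0.0430). The Akt effect in RACVECs minus that in MACs was -5.12 (95% interval -8.20 to -2.04, adjusted p = 0.146). Sox17-RACVECs held 867, 124 and 1384, also below RACVECs, with a log2 fold change of -2.68 (adjusted p = 0.631), or -1.63 without the library labelled Sox17-RACVEC 2. Mesenchymal and smooth muscle markers were lower in Akt-RACVECs, as given above, and their part in the Ccl7 values was not tested.

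Ccl5, an attractant of T cells and monocytes, was low in most groups. Sox17-RACVECs held an FPKM of 56.9, 62.9 and 148, above all RACVEC libraries at 14.3, 11.6 and 19.9 and all Akt-RACVEC libraries at 5.13, 23.6 and 3.96. Sox17-RACVECs thus differed by log2 values of 2.36 (95% interval -0.29 to 5.01, adjusted p = 0.808) and 3.17 (95% interval 0.53 to 5.82, adjusted p = 0.569), so that neither was called. Akt-MACs held 8.47, 100 and 138, against 16.9, 0 and 28.5 in MACs (log2 fold change 2.66, adjusted p = 0.357). The 2 high values were those of Akt-MACs 2 and 3, in which macrophage markers summed to 17105 and 51604. Of 13 such markers, 10 were called higher in Akt-MACs than in MACs, against 2.81% of all genes called in either direction. Clec4f alone was at 0 in every Akt-MAC library. LSECs held 57.4, 77.9 and 61.2 and Akt-liver ECs 18.03, 19.98 and 0 (log2 fold change -3.16, adjusted p = 0.0602), without overlap. It was called without Akt-liver EC 1 (-3.85, adjusted p = 0.0460) or without Akt-liver EC 2 (-3.92, adjusted p = 0.0427), and was -1.72 (adjusted p = 0.323) without Akt-liver EC 3. Akt-LECs held 9.25, 13.5 and 59.9. The part of the macrophage markers in these values was not tested.

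Cxcl10, the interferon-induced ligand of Cxcr3, was the member that marked LSECs. Its FPKM was 671, 523 and 2337 in LSECs, and the highest value elsewhere was 218, in Akt-MAC 2. Akt-liver ECs held 111, 6.80 and 1.69, all below LSECs, a log2 difference of -6.14 (standard error 1.27, 95% interval -8.81 to -3.47, adjusted p = 0.00115). The call held with each of the 6 libraries left out in turn, at values from -7.68 to -4.99, and was lost with the replicate number as a block (adjusted p = 0.0802). In LSECs 1, 2 and 3, hepatocyte marker sums were 4866, 3592 and 17389, and macrophage sums 32320, 28827 and 20054. Lymphocyte sums were 184, 192 and 164. The order of 3 libraries cannot show which cells held the Cxcl10 RNA. Of 19 interferon-induced genes, 8 were called lower in Akt-liver ECs, against 12.9% of all genes. Their median log2 fold change was -2.64, against 0.08 over all genes. Among marker lists, 12 of 13 macrophage, 9 of 10 hepatocyte and 7 of 7 tested lymphocyte genes were called lower in Akt-liver ECs, where macrophage sums were 286 to 1830, hepatocyte sums 97.2 to 603 and lymphocyte sums 0 to 2.31. Their part in the Cxcl10, Ccl5 and Cxcr4 values of LSECs was not tested.

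In the 7 other groups Cxcl10 was lower than in LSECs in every library, and those next to each other in the order of their log2 means overlapped. Groups further apart did not always overlap, since the lowest MAC library, at 14.63, lay just above the highest Akt-RACVEC library, at 14.40. MACs held an FPKM of 131, 14.6 and 81.7, Akt-MACs 138, 218 and 13.3 and RACVECs 91.3, 9.14 and 54.4. Akt-RACVECs held 4.27, 14.4 and 8.66, the lowest mean, and Sox17-RACVECs an even 20.1, 15.9 and 13.5. The log2 fold change of Akt-RACVECs against RACVECs was -2.02 (95% interval -4.68 to 0.65, adjusted p = 0.457). Akt-LECs held 4.36, 38.8 and 38.0.

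Cx3cl1, a ligand tethered to the endothelial surface that is bound by Cx3cr1 on monocytes and shed by Adam10 and Adam17, was nearly absent from LSECs. Its FPKM was 0.72, 1.12 and 1.89 there and 21.8, 245 and 56.5 in Akt-liver ECs. The groups did not overlap and stood 4.97 apart on the log2 scale (standard error 1.06, 95% interval 2.75 to 7.18, adjusted p = 0.00143) on the scale of FPKM + 1, which understates a change from values near 1. In every other group it lay between 35.8 and 1433. MACs held 1433, 157 and 80.5, Akt-MACs 227, 380 and 35.8 and RACVECs 122, 110 and 50.5. Akt-RACVECs held 190, 42.3 and 330, Sox17-RACVECs 72.9, 152 and 158, and Akt-LECs 42.3, 202 and 113. Among the groups in culture all ranges overlapped with those of their neighbours. Of the 8 processing enzymes listed, 2 were called in the liver comparison, Cpn1 and Dpp4, both lower in Akt-liver ECs, against 27.0% of all genes. Adam10 and Adam17 were among the 8 and were not called. In the other comparisons 0 of the 8 were called.

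Other genes of the family were described by lists of 51 ligands, signalling receptors and atypical receptors, of which 50 were in the files and 35 passed the filter. Most calls fell in the liver comparison, where 19 of the 35 were lower and 2 were higher in Akt-liver ECs, with a median log2 fold change of -3.45. Of all genes, 12.9% were called lower and 14.1% higher there. Cxcl9, which shares the receptor Cxcr3 with Cxcl10, had an FPKM of 262, 191 and 930 in LSECs and 2.75, 0 and 0 in Akt-liver ECs (log2 fold change -7.86, adjusted p = 3.08e-08). Ccl24, an eosinophil attractant, had 222, 214 and 159 in LSECs and was listed at 0 in Akt-liver ECs. Dpp4, the protease that trims and inactivates Cxcl12, had 2303, 1657 and 2212 against 22.1, 0.57 and 0 (log2 fold change -9.27, adjusted p = 3.09e-07). All 4 other atypical receptors, Ackr1, Ackr2, Ackr4 and Ccrl2, were called lower in Akt-liver ECs, with log2 fold changes from -7.62 to -4.03. These 4 were named after their values were seen.

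In Akt-MACs, 7 of the 35 were called higher than in MACs and 0 lower, with a median log2 fold change of 1.34. Of all genes, 2.81% were called in either direction there. Ccl3, an attractant of monocytes, was listed at 0 in all MACs and had an FPKM of 16.9, 283 and 635 in Akt-MACs. Ccl6 had 0, 1.43 and 0 in MACs and 108, 797 and 2426 in Akt-MACs (log2 fold change 8.79, adjusted p = 0.0262), and Ccl4 and Pf4 were also called. Ccl3 and Ccl6 were highest in Akt-MAC 3 and lowest in Akt-MAC 1, as was the macrophage marker sum, whose part was not tested. In RACVECs against MACs, Cxcl3, a Cxcr2 ligand of the Cxcl1 cluster, was the only one of the 35 called higher, with 94.8, 88.0 and 151 against 1.98, 0 and 1.10 (log2 fold change 5.89, adjusted p = 0.0288). Ccl27a was the only one called lower, with 5.29, 0 and 1.92 against 16.5, 26.6 and 22.3 (log2 fold change -3.09, adjusted p = 0.0156). Of all genes, 2.71% were called in either direction between RACVECs and MACs. None of the 35 was called in the other 6 comparisons.

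**Figure D5:**
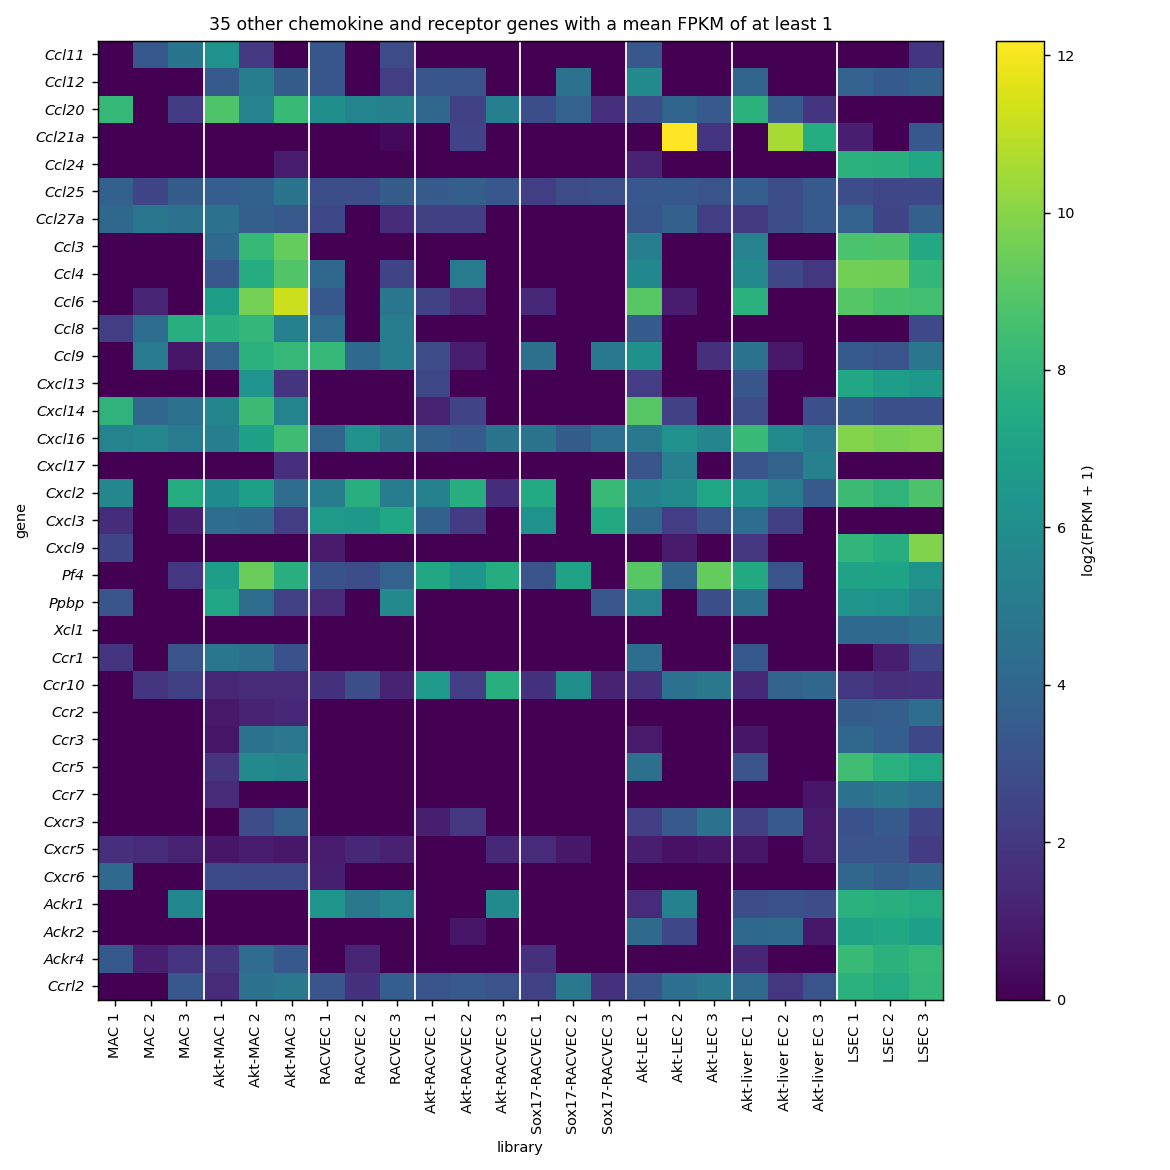
Log2(FPKM + 1) of the 35 other chemokine and receptor genes that passed the filter (rows) in the 24 libraries (columns), from 0 (dark) upwards. The LSEC columns are bright for the atypical receptors in the last rows, and Ccl3, Ccl4 and Ccl6 are bright in Akt-MACs 2 and 3 and in LSECs.

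Of 23 genes of the NF-κB pathway and its feedback, 0 were called in RACVECs against MACs and 0 in Akt-RACVECs against RACVECs. Of all genes, 2.71% and 0.261% were called in these comparisons in either direction. Nfkb1, which encodes the p50 subunit, missed the fold limit in RACVECs against MACs by little (log2 fold change 0.995, standard error 0.23, adjusted p = 0.0237), and is named after its value was seen. In Akt-liver ECs against LSECs 8 of the 23 were called, all lower, against 27.0% of all genes called in either direction and 12.9% lower. Il1b, the inflammatory cytokine interleukin-1β, had an FPKM of 1008, 894 and 1024 in LSECs and 1.46, 0 and 0 in Akt-liver ECs (log2 fold change -9.50, adjusted p = 3.21e-09). LSECs also held macrophage markers, as given above, and the part of these in the values of the NF-κB list was not tested. Tnf was called higher in Akt-MACs than in MACs (log2 fold change 5.02, adjusted p = 0.0370). Of 19 interferon-induced genes, Oas1a and Bst2 were called in RACVECs against MACs, both higher, at log2 fold changes of 4.56 and 2.60. Of all genes, 1.36% were called higher there. Cxcl10 was not called in that comparison.

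Across the 24 libraries, the log2 levels of Ccl2 and Ccl7 were the most alike of the 45 pairs of members, with a Pearson correlation of 0.77. Cxcl5 and Ccl7 followed at 0.61, and Cxcl10 and Ccl2 were the most opposed at -0.71. These values are descriptions over libraries that share groups, and the LSEC libraries lie at 1 end for Ccl2, Ccl7, Cx3cl1 and Cxcl10. With the search limited to the 11699 genes that averaged 10 FPKM or more, the pattern nearest to Ccl2 was that of Uck2 (0.94), the nearest to Cx3cl1 that of Clstn1 (0.93), the nearest to Cxcl10 that of Urah (0.88) and the nearest to Ccl7 that of Eprs (0.88). The nearest to Ackr3 was Traf5 (0.84), to Cxcl5 Vdac1 (0.84) and to Cxcl1 Ufd1 (0.81), with Sele, an endothelial adhesion molecule, next (0.81). Values for Ccl5 (Ankfy1, 0.78), Cxcr4 (Ttpa, 0.77) and Cxcl12 (Oxct1, 0.76, with Vcam1 the third at 0.72) were lower.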

How the data were processed

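RNA-seq values were deposited as FPKM for 27583 RefSeq transcripts in each library. The authors obtained them with TopHat and Cufflinks on the mouse build mm9, with versions not given in the sources used here. Cufflinks was run with upper-quartile normalization and with a correction for sequence bias. The FPKM of transcripts were summed per current symbol, which placed 26934 transcripts in 22282 genes and left 649 without a symbol. Read numbers are not held by FPKM, so the depth is unknown and no counting interval is given.

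Log2(FPKM + 1) of the 14964 genes with a mean of 1 or more was fitted in limma 3.58.1 (R 4.3.3) with 8 groups and trended moderation, two-sided, with Benjamini-Hochberg adjustment over all genes. The fit was tested on simulated data. Other steps used Python 3.11.15, numpy 2.4.6, pandas 2.3.3, scipy 1.17.1 and matplotlib 3.10.9. Promoters came from RefSeq (GRCm38.p6) and gene positions from an mm9 annotation.

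The members and the gene lists were chosen with earlier results of these data known. Named were the 10 members and, of the lists, up to 5 called genes per comparison with the largest fold. Alternatives were other pseudocounts, filters and scaling, 1 transcript per gene, fits of the compared groups alone with or without a replicate block, the criterion of the study's methods, and leaving out libraries.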

Additional observations from a re-analysis of the deposited data

How the results depend on the processing

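Of 1460 alternative values for 90 results, 1368 kept their direction and their side of the threshold, 12 lost a call, 9 gained one and 71, in 32 results, changed direction. None of those 32 results was called to begin with.

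The call of Ccl2 in RACVECs against MACs was the least stable of those made. The count of members called there was 0 with only the compared groups fitted and 0 with the replicate number as a block (adjusted p of Ccl2 0.325). It was also 0 with the pairs named in the file headers (MAC 2 with RACVEC 1, MAC 3 with RACVEC 2) as a block. That fit left out MAC 1 and RACVEC 3, and leaving out either of them alone lost the call as well. With libraries left out in turn the count ranged from 0 to 1 there, in Akt-RACVECs against RACVECs (1, Ccl7, without Akt-RACVEC 1) and in Sox17-RACVECs against Akt-RACVECs (1, Ackr3, without the library labelled Sox17-RACVEC 2). In the liver comparison Cxcl10, Ccl2, Ccl7 and Cx3cl1 were called with each library left out, and Cxcl10 alone was lost with the block (adjusted p 0.0802). No comparison had a correlation above 0.1 between all libraries of the same number, so the numbers were not taken as pairs. Single correlations were larger, at 0.57 for Akt-LEC 1 with Akt-liver EC 1 and 0.37 for Akt-LEC 2 with Akt-liver EC 2. Others were negative, down to -0.49 for Sox17-RACVEC 3 with Akt-RACVEC 3. The origin of these correlations was not tested. The blocks of header pairs, and the fits without Akt-LEC 1 and Akt-liver EC 1 or without Akt-MACs 2 and 3, were chosen after seeing the data.

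These log2 values had the direction opposite to that reported. In RACVECs against MACs, Cx3cl1 was 0.040 with the header pairs, a fit without MAC 1 and RACVEC 3. By the log2 ratio of averaged FPKM, Cxcl1 was -0.45 in Sox17-RACVECs against RACVECs, Cxcl12 was 0.27 in Akt-liver ECs against LSECs, and Cxcl5 and Cxcl10 were -1.03 and -0.54 in Akt-LECs against Akt-liver ECs. Without Akt-MACs 2 and 3, Cxcl5 was 1.43 in Akt-MACs against MACs and Cxcl1 was -1.32 for the difference of the Akt effects, and there Cxcl12 was -0.44 by its highest transcript. In Akt-LECs against Akt-liver ECs, Cxcr4 was -0.024 with a pseudocount of 0.1 and -1.11 without Akt-LEC 1 and Akt-liver EC 1. Without those libraries, Cxcr4, Cxcl1 and Cxcl10 were 1.06, -1.10 and -0.080 in RACVECs against Akt-LECs.

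With single libraries left out, the log2 fold change of the members below crossed 0, and its lowest and highest values are given. For RACVECs against MACs it was Ackr3 -1.40 to 0.38, Cxcl10 -1.49 to 0.37 and Ccl5 -0.53 to 1.91. For Akt-RACVECs against RACVECs it was Cxcl12 -1.18 to 1.09. For Sox17-RACVECs against RACVECs it was Cxcr4 -2.57 to 0.13, Ackr3 -2.03 to 1.501, Cxcl1 -0.93 to 1.44 and Cxcl5 -4.08 to 0.39. For Sox17-RACVECs against Akt-RACVECs it was Cxcr4 -0.85 to 2.18, Cxcl5 -1.72 to 3.02, Ccl2 -0.17 to 0.94 and Cx3cl1 -1.05 to 0.42. For Akt-MACs against MACs it was Cxcl1 -0.32 to 2.14, Cxcl5 -3.03 to 1.41, Cxcl10 -0.46 to 1.65 and Cx3cl1 -1.69 to 0.38. For Akt-liver ECs against LSECs it was Ackr3 -0.42 to 1.32. For Akt-LECs against Akt-liver ECs it was Cxcr4 -1.33 to 1.04, Cxcl1 -0.0039 to 1.87, Cxcl10 -0.54 to 2.15 and Cx3cl1 -0.25 to 1.47. For RACVECs against Akt-LECs it was Cxcr4 -1.31 to 1.06, Cxcl1 -1.15 to 1.22, Cxcl10 -0.080 to 1.82, Ccl5 -0.90 to 0.39 and Cx3cl1 -0.78 to 0.34. For the difference of the Akt effects it was Cxcl12 -0.27 to 2.16, Cxcl1 -1.16 to 1.49 and Cxcl5 -4.04 to 0.40. The cause of these changes was not tested.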

Other observations

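Values of other chemokine genes that no comparison called varied between libraries of 1 group, and the genes given here were chosen after their values were seen. Ccl21a, a ligand of Ccr7 made by lymphatic endothelium, had an FPKM of 0, 4646 and 2.53 in Akt-LECs and 0, 1519 and 185 in Akt-liver ECs. It was at most 9.22 in every other library. Akt-LEC 2 and Akt-liver EC 2 thus stood above the other libraries of their groups.

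Ccr10, the receptor of Ccl27 and Ccl28, had an FPKM of 94.0, 3.69 and 207 in Akt-RACVECs and 2.48, 6.43 and 1.34 in RACVECs. In Sox17-RACVECs it was 2.48, 66.3 and 1.27, with the high value in the library labelled Sox17-RACVEC 2, which was also the one with high Ackr3.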
